A study of Rattus norvegicus with 12 samples.

Results

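Proximal tubule cells of the kidney carry on their luminal face a brush border, a dense carpet of microvilli studded with peptidases and with the receptors that take up filtered protein. The peptidases cut filtered peptides, glutathione and folate conjugates into pieces small enough for transport, and the receptors megalin and cubilin carry filtered proteins and vitamin carriers into endosomes and lysosomes. Cephaloridine is a cephalosporin antibiotic that organic anion transporters concentrate in these same cells, which it injures. The 7 genes described here are 5 peptidases (Folh1, Mme, Anpep, Dpp4 and Ggt1) and 2 endocytic receptors (Lrp2, which encodes megalin, and Cubn, which encodes cubilin). They were chosen by name, taking every probe whose gene name or accession led to a member, which gave 9 probes for 7 of 35529 genes or transcripts on the array. Anpep and Dpp4 had 2 probes each, and the brighter one stands for the gene unless the dimmer one is named.

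The kidney cortex of male Fisher 344 rats, aged 8 weeks, was profiled 24 h after 1 intravenous injection. The 4 groups of 3 animals received saline alone (control, 0 mg/kg) or cephaloridine dissolved in saline at 150 mg/kg (low), 300 mg/kg (middle) or 600 mg/kg (high), doses that the study describes as ranging from subtoxic to toxic. Each animal had 1 single-colour array, numbered within its group, and 20760 genes or transcripts were tested. The 75th percentile of the signal ran from 627 to 712 over the 12 arrays, between 59.2% and 63.3% of probes were well above background, and 0 spots were saturated. All 9 member probes were well above background on all 12 arrays. The labelled tissue bore its markers, since 15 of 16 genes listed as markers of the proximal tubule were on the array and all 15 were tested. Levels are given as signal in multiples of the 75th percentile of the same array, so a level of 1 equals that percentile, and levels of different probes cannot be set against each other. In bulk cortex, fewer cells of a type and less RNA per cell cannot be told apart.

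The arrays lay on 4 slides, and no slide held both high and control animals. Low 1 was on slide 1 with the 3 controls, slide 2 held low 2 beside middle 1, slide 3 held low 3 beside middle 2, and middle 3 was on slide 4 with the 3 high animals. A fit with slide as a block therefore reaches the high group from the control group only through 1 low animal on slide 1, the low and middle animals of slides 2 and 3, and 1 middle animal on slide 4. Its values stand beside the results whose call it changes. No gene of any list named here was called against control at 300 mg/kg in that fit, so every list gene given as changed at 300 mg/kg lost its call there.

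At 600 mg/kg most of the set fell. Folh1 fell the most, to 38.1% of the control level. Lrp2, Cubn, Anpep and Dpp4 also fell, to between 73.8% and 90.3% of control, whereas Ggt1 and Mme did not pass the test. In all, 5 of 7 members were called lower and 0 higher at an adjusted p under 0.05 (limma, Benjamini-Hochberg over all genes tested), where 16.8% of all genes tested were called lower, 18.0% higher and 34.8% in either direction. The median log2 change was -0.24 over the 7 members and -0.002 over all genes tested. All 3 high animals lay below all 3 controls in 6 members, where 27.6% of all genes did so. In Mme all 3 high animals lay above the controls. The share of all genes lying above is not reported here, nor are such shares for the other group comparisons. The share of genes with the high animals below all other animals was not computed. Statements below that groups lay apart in single members therefore have no such share beside them. With slide as a block 0 of 7 members were called (limma), and 2.81% of all genes were; Folh1, Anpep and Dpp4 had an unadjusted p under 0.05 in that fit, 3 of 7, as did 22.1% of all genes.

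**Figure D1:**
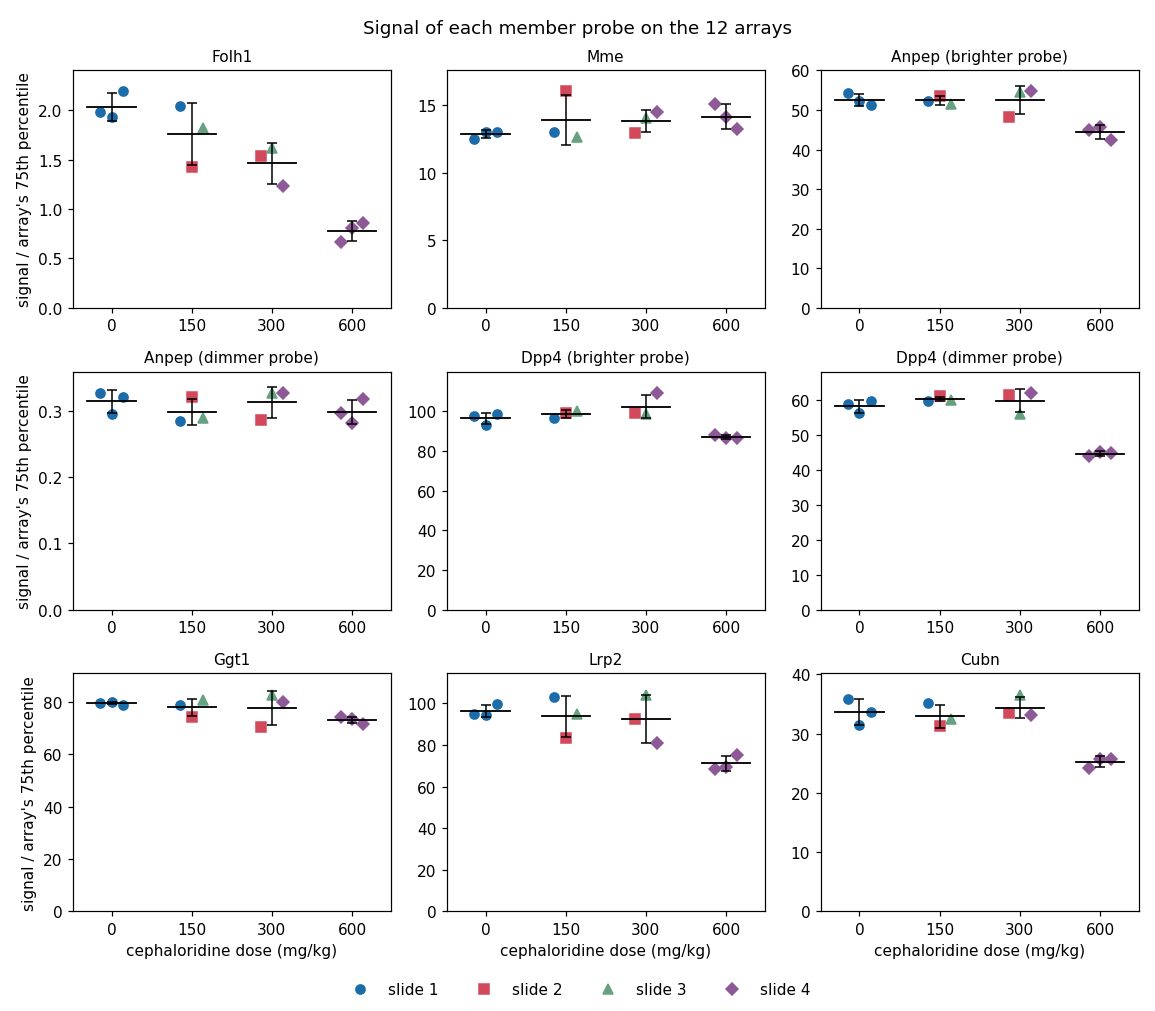
Signal of the 9 member probes on each of the 12 arrays, as multiples of the array's 75th percentile, against the cephaloridine dose in mg/kg. Points are animals marked by slide, the long bar is the group mean and the whiskers are 1 SD (n = 3); the Folh1 points at 600 mg/kg lie between 0.667 and 0.86, below every other array.

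The promoter windows of 4 members that fell are shown because these genes were all called lower at the high dose in the fit without a slide block: Folh1 with the largest change, Anpep as a peptidase with a smaller fall, and the receptor pair Lrp2 and Cubn. Each is the 250 bases before the gene start, 5′ to 3′ on the gene's own strand, from RefSeq on the GRCr8 build, and all 7 members matched that table by symbol. All 4 lie on the minus strand, at chr1:149914036-149914285 (Folh1), chr1:143195102-143195351 (Anpep), chr3:74754536-74754785 (Lrp2) and chr17:81501695-81501944 (Cubn). Capitals mark matches to 5 motifs searched on both strands: GTTAAT, the core of the site bound by HNF1 factors; CAAAGTCCA, a site of HNF4 factors; TGACNNNGC, the core of the antioxidant response element; GGGCGG, the GC box; and TATAAA, the TATA box.
Folh1: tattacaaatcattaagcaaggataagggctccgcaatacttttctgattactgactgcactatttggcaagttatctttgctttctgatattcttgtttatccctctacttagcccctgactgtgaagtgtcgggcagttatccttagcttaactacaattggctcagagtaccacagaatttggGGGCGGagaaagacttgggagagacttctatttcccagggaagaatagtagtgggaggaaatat
Anpep: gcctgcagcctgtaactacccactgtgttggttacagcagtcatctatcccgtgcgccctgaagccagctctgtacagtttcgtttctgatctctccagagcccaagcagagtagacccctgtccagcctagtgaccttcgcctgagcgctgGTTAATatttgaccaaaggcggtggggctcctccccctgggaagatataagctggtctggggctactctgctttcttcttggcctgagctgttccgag
Lrp2: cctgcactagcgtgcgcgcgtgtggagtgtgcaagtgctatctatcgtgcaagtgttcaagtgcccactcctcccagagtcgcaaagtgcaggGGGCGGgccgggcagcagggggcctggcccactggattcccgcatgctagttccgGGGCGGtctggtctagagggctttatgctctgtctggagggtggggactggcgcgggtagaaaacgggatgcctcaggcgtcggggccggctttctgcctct
Cubn: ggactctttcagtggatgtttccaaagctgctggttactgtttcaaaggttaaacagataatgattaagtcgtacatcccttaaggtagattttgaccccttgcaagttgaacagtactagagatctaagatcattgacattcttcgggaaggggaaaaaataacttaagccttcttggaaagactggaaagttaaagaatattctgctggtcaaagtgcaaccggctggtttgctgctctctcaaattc

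GTTAAT was found in the Anpep window alone among the 7 members, 98 bases before the start, and in 6.45% of all 33469 promoters of that length. The GC box stood in 3 member windows, those of Folh1, Mme and Lrp2, and in 30.5% of all promoters. CAAAGTCCA, TGACNNNGC and TATAAA matched 0 member windows, and 0.338%, 10.1% and 12.9% of all promoters. In Folh1 the GC box began 64 bases before the start, and in Lrp2 the 2 boxes began 157 and 102 bases before it. No motif was shared by all 4 windows printed. The windows also differed in composition, with 41.6% G and C in Folh1 and 40.0% in Cubn against 64.4% in Lrp2, where the median over all promoters was 51.2%. A match is a description of letters, and its absence says only that they were not in this window.

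Among the peptidases, Folh1 encodes glutamate carboxypeptidase II, which trims terminal glutamates from folate conjugates and from N-acetylaspartylglutamate. Its levels were 1.98, 1.93 and 2.19 in the controls, 2.04, 1.42 and 1.82 at 150 mg/kg, 1.54, 1.62 and 1.23 at 300 mg/kg, and 0.667, 0.805 and 0.86 at 600 mg/kg. The high animals lay below every other animal, the middle animals lay below every control, and the low animals overlapped both the control and the middle group. The mean level was 0.777 ± 0.0993 at 600 mg/kg and 2.03 ± 0.140 in controls (SD, n = 3 each), a log2 change of -1.39 ± 0.15 (SE, 95% interval -1.72 to -1.06, adjusted p = 0.000145), or 2.63-fold lower. Of all genes tested, 0.12% had a lower log2 change. A fit with the slide block gave -0.69 ± 0.25 (adjusted p = 0.174), and in that fit 5.01% of all genes had a lower change. Within slide 4 the 3 high animals lay below middle 3, with a difference of -0.67 in log2 signal.

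Anpep encodes aminopeptidase N, which removes single amino acids from the amino end of peptides. Its brighter probe gave levels of 54.2, 52.2 and 51.2 in the controls, 52.2, 53.6 and 51.4 at 150 mg/kg, 48.3, 54.5 and 54.7 at 300 mg/kg, and 44.9, 45.8 and 42.4 at 600 mg/kg. The high animals lay below all the others, and the other 3 groups overlapped. The log2 change at 600 mg/kg was -0.24 ± 0.06 (adjusted p = 0.00777), to 84.5% of the control level. The dimmer probe gave 0.298 ± 0.0181 at 600 mg/kg and 0.313 ± 0.0172 in controls, with overlapping animals and a log2 change of -0.07 ± 0.08 (adjusted p = 0.503 over all probes). The 2 Anpep probes therefore did not give the same call, and with their mean the adjusted p was 0.0609. The brighter probe changed by -0.34 ± 0.14 (adjusted p = 0.202) once slide was a block, and within slide 4 the high animals lay below middle 3 by 0.30 on the log2 scale.

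Dpp4 encodes dipeptidyl peptidase 4, which releases dipeptides that end in proline or alanine. Its brighter probe read 97.6, 93.1 and 98.4 in the controls, 96.3, 99.1 and 100 at 150 mg/kg, 99.1, 98.8 and 109.0 at 300 mg/kg, and 88.1, 86.5 and 86.4 at 600 mg/kg. Its dimmer probe read 58.9, 56.2 and 59.7 in the controls, 59.9, 61.1 and 60.2 at 150 mg/kg, 61.4, 56.1 and 62.0 at 300 mg/kg, and 44.0, 45.3 and 44.8 at 600 mg/kg. On both probes the 3 high animals were tightly grouped and lay below all other animals. The brighter probe changed by -0.15 ± 0.05 in log2 (adjusted p = 0.036) and the dimmer one by -0.38 ± 0.05 (adjusted p = 0.000349 over all probes), so the size of the fall depended on the probe. The dimmer probe minus the brighter one, on the log2 scale, averaged -0.96 in high animals and -0.73 in controls, with no overlap between the animals of the 2 groups. The call on the brighter probe was lost without any 1 of 5 arrays (all but control 2), with adjusted p from 0.0431 to 0.104 over the 6 arrays left out in turn. It was also lost with quantile normalization (0.19) and under the slide block (change -0.34, adjusted p = 0.0977).

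Ggt1 encodes gamma-glutamyltransferase 1, which opens the gamma-glutamyl bond of glutathione. It averaged 73.1 ± 1.24 at 600 mg/kg, with animals between 71.7 and 74.2, and 79.5 ± 0.463 in controls, with animals between 79.0 and 79.9. The groups did not overlap, but the log2 change of -0.12 ± 0.06 (95% interval -0.25 to 0.01) did not pass the test across the 12 arrays (adjusted p = 0.139). A fit on the 2 compared groups alone, which leaves out the wider spread of the low and middle animals, gave an adjusted p of 0.0373 for the same change. At 150 mg/kg the animals read 74.3 to 80.8 and at 300 mg/kg 70.4 to 82.6, and both ranges contained all 3 controls.

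Mme encodes neprilysin, a zinc endopeptidase that cuts natriuretic peptides and enkephalins. The levels were 15.1, 14.1 and 13.2 at 600 mg/kg and 12.5, 13.0 and 13.0 in controls. All 3 high animals were above all controls, by a small margin for high 3, and the log2 change of 0.14 ± 0.09 (95% interval -0.06 to 0.34) did not pass the test (adjusted p = 0.258). The low animals ran from 12.6 to 16.0, overlapping both groups, with low 2 the highest of the 12 arrays. A probe that the array describes as neprilysin, but that the naming rule does not assign to Mme, changed by -0.13 ± 0.08 (adjusted p = 0.22 over all probes).

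Lrp2 encodes megalin, a giant member of the LDL receptor family that binds albumin, vitamin carriers and aminoglycoside antibiotics on their way into the cell. Its levels were 94.9, 94.6 and 99.8 in the controls, 103.0, 83.4 and 94.9 at 150 mg/kg, 92.7, 104.0 and 81.1 at 300 mg/kg, and 68.5, 69.6 and 75.4 at 600 mg/kg. The high animals lay below all others, next to middle 3, the animal that shared their slide, whose level was the lowest of the other 9. The means were 71.2 ± 3.69 at 600 mg/kg and 96.4 ± 2.92 in controls (SD, n = 3 each), a log2 change of -0.44 ± 0.10 (adjusted p = 0.00592), or 1.36-fold lower. Once slide was a block the change was 0.04 ± 0.12 (95% interval -0.23 to 0.32, adjusted p = 0.863), so the direction turned. Within slide 4 the high animals were still below middle 3, by 0.19 on the log2 scale, while on slides 2 and 3 the middle animal was above the low one by 0.15 and 0.13, and on slide 1 low 1 was above the control mean by 0.09.

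Cubn encodes cubilin, a large peripheral membrane protein that binds the complex of intrinsic factor and vitamin B12 as well as albumin, and that needs amnionless to reach the membrane. It read 35.9, 31.4 and 33.7 in the controls, 35.1, 31.3 and 32.4 at 150 mg/kg, 33.5, 36.5 and 33.2 at 300 mg/kg, and 24.2, 25.8 and 25.8 at 600 mg/kg. All 3 high animals lay below all 9 others, and the remaining 3 groups overlapped. The log2 change at 600 mg/kg was -0.41 ± 0.07 (adjusted p = 0.00119), or 1.33-fold lower. The slide block gave -0.19 ± 0.14 (adjusted p = 0.453). Within slide 4 the high animals lay 0.39 below middle 3 on the log2 scale.

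Counted over probes, 6 of 9 were called lower at 600 mg/kg, the exceptions being the probes of Mme and Ggt1 and the dimmer probe of Anpep. Of all 24728 probes tested, 16.8% were called lower.

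**Figure D2:**
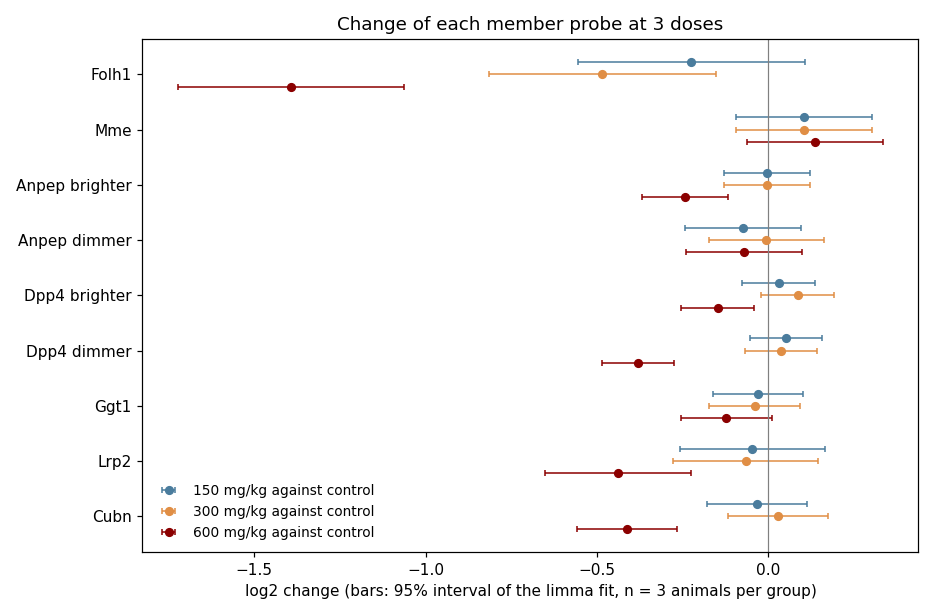
Log2 change against control of the 9 member probes at 150, 300 and 600 mg/kg, with 95% intervals of the limma fit (n = 3 animals per group). The Folh1 change is -0.22, -0.48 and -1.39 at the 3 doses. At 150 mg/kg the intervals of all 9 probes include 0, and at 300 mg/kg all but that of Folh1 do.

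At 300 mg/kg 0 of 7 members were called against control (limma), where 13.0% of all genes were, and 1 member had an unadjusted p under 0.05, as did 30.4% of all genes. That member was Folh1, with a mean level of 1.46 ± 0.207 at 300 mg/kg and 2.03 ± 0.140 in controls and a log2 change of -0.48 ± 0.15 (adjusted p = 0.0583). Leaving out 1 array in turn moved this adjusted p between 0.0615 and 0.143, and normexp background correction gave 0.0312. The log2 changes of the other 6 members lay between -0.07 and 0.10. Folh1 under the slide block changed by -0.02 ± 0.20 (adjusted p = 0.969).

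At 150 mg/kg 0 of 7 members were called, where 0.101% of all genes were, and 0 had an unadjusted p under 0.05 (10.1% of all genes). Folh1 changed by -0.22 ± 0.15 (95% interval -0.55 to 0.11, adjusted p = 0.657), with low 2 at 1.42 and the other 2 low animals at 2.04 and 1.82. The 3 dose groups were set against the same 3 controls, so these comparisons share those animals. Between 300 and 150 mg/kg 0 of 7 members were called (0.231% of all genes), and 0 had an unadjusted p under 0.05 (16.0% of all genes).

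The size of the change from the middle to the high dose does not use the control levels. Its standard error and adjusted p do use the control animals, since the spread was estimated over all groups together. The high animals are also the same as in the comparison with control, so the calls of the comparisons are not independent. Against 300 mg/kg, 5 of 7 members were lower at 600 mg/kg, the same 5 genes that fell against control, where 12.9% of all genes were called lower. Folh1 changed by -0.91 ± 0.15 (adjusted p = 0.00219), Cubn by -0.44 ± 0.07 (0.00133), Lrp2 by -0.37 ± 0.10 (0.0196), Anpep by -0.24 ± 0.06 (0.0127) and Dpp4 by -0.23 ± 0.05 (0.00666). The intervals for Ggt1 (-0.21 to 0.05) and Mme (-0.17 to 0.23) included 0. With slide as a block 3 of 7 stayed lower, where 4.79% of all genes were: Folh1 at -0.67 ± 0.15 (adjusted p = 0.0387), Cubn at -0.39 ± 0.08 (0.0323) and Dpp4 at -0.33 ± 0.06 (0.0171). Lrp2 changed by -0.19 ± 0.07 in that fit (adjusted p = 0.138), and without the block its call was lost without high 1, high 2 or middle 2 (adjusted p 0.0669, 0.0597 and 0.0542). Anpep at -0.30 ± 0.08 had an adjusted p of 0.0629 with the block, and 0.0519 in the unblocked fit when high 3 was left out. Ggt1, not called in that comparison, was called when middle 1 was left out (adjusted p = 0.0475). The blocked estimate here equals the difference on slide 4, the 1 slide that holds both groups, with 1 middle animal.

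**Figure D3:**
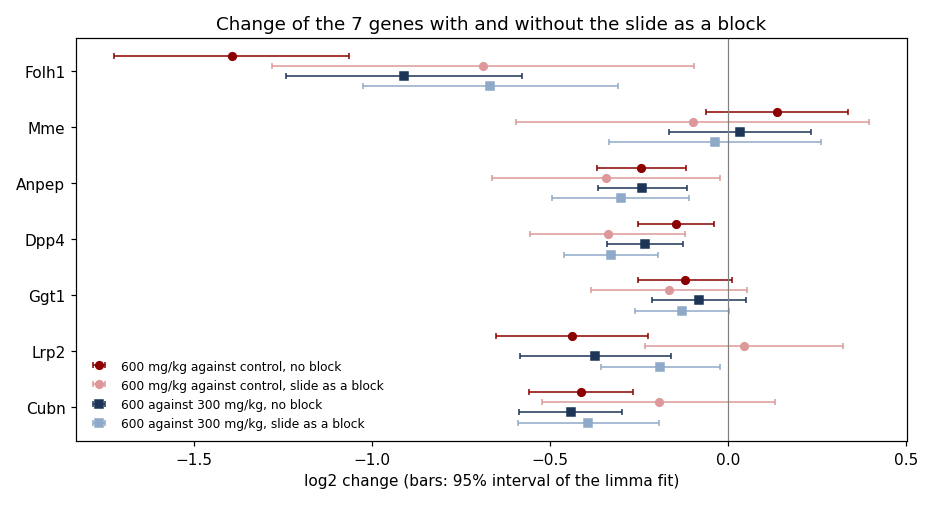
Log2 change of the 7 genes at 600 mg/kg against control and against 300 mg/kg, each with and without slide as a block in the limma fit (bars are 95% intervals). Lrp2 is at -0.44 without the block and at 0.04 with it against control. The estimates of Folh1, Anpep, Dpp4, Ggt1 and Cubn are below 0 in all 4 fits.

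A list of other enzymes and enzyme-related proteins of the tubule, most of them hydrolases of the brush border, had the same median at 600 mg/kg. Of 18 tested genes, 1 rose, 9 fell and 8 did not pass, where 16.8% of all genes were called lower and 34.8% in either direction. The list had a median log2 change of -0.24 and a range from -0.60 to 0.36, beside a median of -0.002 over all genes. Those that fell the most were Acy1 (-0.60 ± 0.09), a cytosolic aminoacylase, Mgam (-0.58 ± 0.12), a maltase, Cltrn (-0.54 ± 0.08), a membrane protein without a peptidase domain that escorts amino acid transporters to the cell surface, and Alpl (-0.52 ± 0.07), an alkaline phosphatase. Ace, the angiotensin converting enzyme, rose by 0.36 ± 0.10 (adjusted p = 0.0151). In the slide-blocked fit 0 of the 18 were called. At 300 mg/kg Lap3, a cytosolic aminopeptidase, rose by 0.15 (adjusted p = 0.0367) and the other 17 did not pass, and at 150 mg/kg 0 passed.

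The partners of megalin and cubilin were split. Of 27 tested genes of the endocytic route, 3 rose, 6 fell and 18 did not pass, with a median log2 change of -0.02, where 34.8% of all genes were called in either direction. Rab11fip3, a recycling endosome adaptor, fell by 0.48 ± 0.10, Dab2, the clathrin adaptor that binds the megalin tail, by 0.46 ± 0.07, and Ehd1, a recycling ATPase, by 0.29 ± 0.05. Hnf4a, a transcription factor on both this list and the list of proximal tubule markers, fell by 0.46 ± 0.05 (adjusted p = 0.000146) and was the 1 gene of the 27 called with slide as a block (-0.54, adjusted p = 0.0465). Clcn5, an endosomal chloride-proton exchanger, rose by 0.36 ± 0.11, Gipc1, a scaffold that binds the megalin tail, by 0.28 ± 0.05, and Cltb, a clathrin light chain, by 0.18 ± 0.05. Chosen after their values were seen, Amn, which encodes the amnionless partner of cubilin, changed by -0.24 ± 0.07 (adjusted p = 0.017) and Lrpap1, the chaperone of megalin, by -0.14 ± 0.05 (adjusted p = 0.0656). At 300 mg/kg 2 of the 27 rose (Lrp10, by 0.15, and Ap2m1, by 0.14) and 1 fell (Ap2b1, by 0.25), and at 150 mg/kg 0 passed.

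Downstream of uptake, 3 of 14 tested lysosomal genes rose and 7 fell at 600 mg/kg, with a median of -0.16, where 18.0% of all genes rose and 16.8% fell. The proteases legumain (Lgmn, -0.55 ± 0.10) and cathepsin H (Ctsh, -0.52 ± 0.06) fell, as did the membrane protein Lamp2 (-0.29 ± 0.06). The cathepsins Ctsz (0.59 ± 0.10), Ctsd (0.23 ± 0.07) and Ctsl (0.22 ± 0.08) rose. Of 14 tested genes of the microvillus scaffold, 0 rose and 5 fell, with a median of -0.11. The share called was near the 34.8% of all genes called in either direction, while 16.8% of all genes were called lower. The 5 scaffold genes that fell included the sodium-proton exchanger Slc9a3 (-0.45 ± 0.07), the PDZ scaffold Pdzk1 (-0.32 ± 0.05), the adhesion molecule Tmigd1 (-0.26 ± 0.07) and the actin bundler villin (Vil1, -0.23 ± 0.06). Neither list had a gene called at 600 mg/kg against control in the slide-blocked fit (0 of 14 in each). At 300 mg/kg 0 lysosomal genes passed, and in the scaffold list Cdhr2, a microvillar cadherin, rose by 0.23 (adjusted p = 0.0398).

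Markers of cell types also moved at 600 mg/kg, and some at 300 mg/kg. Of 15 tested proximal tubule markers, 14 fell and 0 rose at 600 mg/kg, where 16.8% of all genes were called lower and 18.0% higher. The median log2 change of the 15 was -0.53, with a range from -0.85 to -0.16. Slc7a7, a basolateral amino acid transporter, fell by 0.85 ± 0.11, the inositol oxygenase Miox by 0.69 ± 0.07, the organic cation transporter Slc22a2 by 0.68 ± 0.08 and Kap, an androgen-regulated kidney protein, by 0.60 ± 0.06. Their summed level ran from 749 to 796 in high animals and from 989 to 1040 in controls, and with slide as a block 4 of 15 were called lower. The change of Folh1 (-1.39) lay below that whole range, those of Lrp2 and Cubn lay within it, and those of Ggt1 and Mme lay above it. Anpep lay within it on its brighter probe (-0.24) and above it on its dimmer probe (-0.07). Dpp4 lay above it on its brighter probe (-0.15) and within it on its dimmer probe (-0.38). These positions hold only for the fit without the slide block. With slide as a block the 15 markers ran from -1.09 to 0.21. The 7 members all lay within that range, from -0.69 (Folh1) to 0.04 (Lrp2). At 300 mg/kg 2 of the 15 fell, Miox by 0.24 and Kap by 0.21, with sums from 933 to 952, where 13.0% of all genes were called in either direction. The slide-blocked fit called 0 of the 15 at that dose, and at 150 mg/kg 0 passed.

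The counts for markers of other cells stand beside 18.0% of all genes called higher, 16.8% lower and 34.8% in either direction at 600 mg/kg. Of 11 tested myeloid markers 8 rose at that dose (median 0.44), among them Adgre1 by 0.88 ± 0.07, Cd14 by 0.56 ± 0.05, Tyrobp by 0.53 ± 0.08 and C1qa by 0.44 ± 0.10. Their summed level ran from 51.3 to 57.5 in high animals and from 38.6 to 43.9 in controls. Of 8 endothelial markers 5 fell, with sums from 45.0 to 47.3 in high animals and from 56.8 to 59.6 in controls. Of 7 loop and distal tubule markers 3 rose (Calb1, Kcnj1 and Slc12a3), with sums from 396 to 415 in high animals and from 356 to 385 in controls. A bright probe weighs most in such a sum: over all arrays Kdr made up 82.9% of the endothelial sum, Umod 79.6% of the loop and distal sum, Lyz2 46.7% of the myeloid sum and Slc13a3 32.7% of the proximal tubule sum. Of 12 injury markers 5 rose, among them Havcr1, which encodes a kidney injury molecule, by 3.19 ± 0.51. In the slide-blocked fit 1 myeloid, 0 endothelial, 1 loop or distal and 1 injury marker were called. Of 7 collecting duct markers 3 rose, of 7 fibroblast markers 2 rose, of 6 podocyte markers 1 fell, and of the 4 lymphocyte markers tested, out of 10 on the array, 1 rose and 1 fell. The slide-blocked fit called 0 of these collecting duct, fibroblast, podocyte and lymphocyte markers. S100a9, a neutrophil gene of the myeloid list, and Lum, Cd4 and Lcn2 of the fibroblast, lymphocyte and injury lists passed the filter only through the high group. On the 3 control arrays S100a9, Lum and Cd4 were each well above background on 1 and Lcn2 on 0. They are in the counts of tested markers, and the filter favoured a rise in them. The part of these cell types in the changes of the 7 members was not tested.

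**Figure D4:**
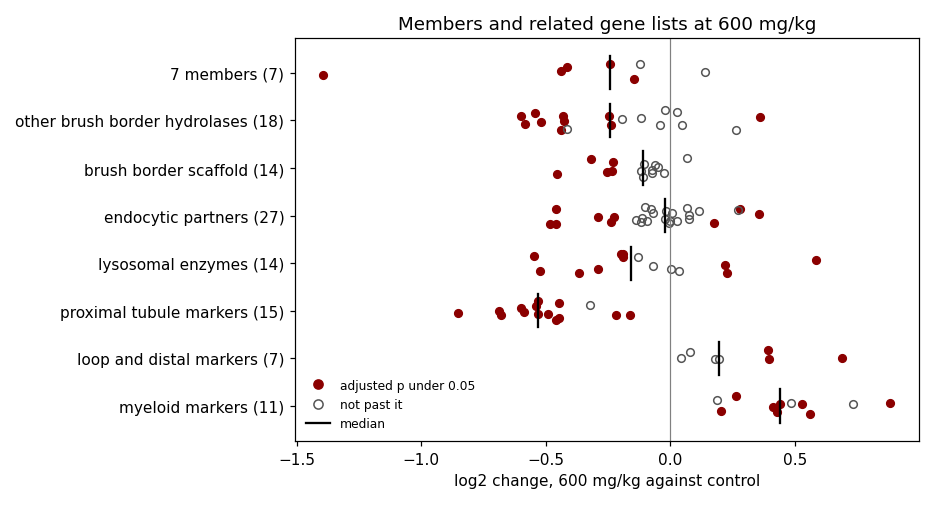
Log2 change at 600 mg/kg against control for the 7 members and 7 related gene lists, with the number of tested genes in brackets. Filled points passed an adjusted p under 0.05 and black bars are medians, which are -0.24 for the members, -0.53 for the proximal tubule markers and 0.44 for the myeloid markers.

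The genes whose log2 signal ran most like each member over the 12 arrays are given as a description, with Pearson's r. For Folh1 they were Hibadh, a mitochondrial dehydrogenase of valine breakdown (0.986), Apcs (0.982) and Or13l2 (0.977). For Lrp2 they were Tinag (0.984), Etfdh (0.981) and Sgpp1 (0.979), and for Cubn Ankrd46 (0.989), Lamp2 (0.980) and Arl1 (0.979). For the peptidases with smaller changes the closest genes were Vill for Anpep (0.969), Hsd17b11 for Dpp4 (0.976), Hsd17b8 for Ggt1 (0.948) and Clp1 for Mme (0.949). The points share their arrays, slides and scaling, and for the members that fell the 3 high arrays stand apart from the other 9.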

How the data were processed

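Total RNA of kidney cortex was labelled with Cy3 and hybridised to 12 single-colour Agilent arrays. Feature extraction used Agilent Feature Extraction 9.1.3.1, per the file headers. The deposited processed, mean and background signals are linear intensities, and per the file headers the marks for spots well above background, saturated or outlying are 0 or 1. The authors' deposited value table holds linear ratios, namely processed signals floored at 5 over 1 constant per array, within 0.1% on all probes compared, with array constants from 58.9 to 68.5 and column medians from 1.00 to 1.01. It was used only as an alternative, and 0 of its sample columns were unused.

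The log2 of the processed signal minus the array's 75th percentile was computed from the files, averaging the spots of a probe without outlier marks. Names came from array accessions or symbols matched to the RefSeq gene table of GRCr8 (10735 probes by accession, 5571 by current and 3729 by older symbol, 20977 unmatched and kept as named on the array). The probe with the highest mean stood for a gene, and a gene was tested if some group had it well above background on each of its 3 arrays. The comparisons used limma 3.58.1 in R 4.3.3, 1 mean per group over all 12 arrays, two-sided, with Benjamini-Hochberg adjustment over all 20760 genes and calls at an adjusted p under 0.05. Errors beside log2 changes are limma standard errors, and 3 animals per group limit the precision. The fit was checked on simulated data without slide effects, so that check does not cover the tie between slide and dose.

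Alternatives covered the scaling, background correction, value table, filter, probe choice, fitted groups, moderation, array weights, a 2-fold limit, leaving out arrays, and replicate number, slide or scan day as a block. Slides and scan days came from the file headers. Quantile normalization with slide as a block was added after seeing the data. The members, the gene lists and the tests were chosen with earlier results of these data known. Named genes were all members, the up to 4 most changed called genes per direction and list at the high dose (2 at lower doses), and the 3 genes most like each member; not every gene that this rule names is reported here. Same-numbered animals did not vary together: of 18 pairs, 1 had a correlation of deviations over 0.1 (range -0.22 to 0.12), so numbers were not taken as pairs.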

Additional observations from a re-analysis of the deposited data

How the results depend on the processing

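With 3 animals a group and no slide shared by high and control animals, slide and dose cannot be told apart for most of the control comparison. With slide as a block 0 of 7 members and 584 genes were called at 600 mg/kg against control, beside 5 members and 7224 genes without it, and Lrp2 changed by 0.044 in place of -0.44. Quantile normalization with slide as a block gave 0 members and 624 genes. A 2-fold limit left 1 member, Folh1, and 352 genes. Leaving out each array gave 4 to 5 members and 5345 to 6169 genes. At 600 against 300 mg/kg the 5 called members became 3 with quantile normalization, 3 with slide as a block, 2 with both, 2 with only the compared groups, and 0 with the 2-fold limit, and 4 to 6 with 1 array left out. At 300 mg/kg against control 1 member, Folh1, was called with normexp background correction, and likewise 1 with trended and robust moderation, in place of 0. All genes called there numbered 2704, and became 897 with no filter, 264 with only the compared groups, 45 with slide as a block, 38 with that block and quantile normalization, 1312 with slide as a random block, 58 with the 2-fold limit, and 710 to 2716 with 1 array left out (710 without control 2, 741 without control 1). At 150 mg/kg the 21 called genes became 133 with array weights, 12 with no filter, 42 with normexp, 0 with only the compared groups, 8 with quantile normalization and slide as a block, 9 with a replicate block, 8 with scan day and 7 with slide as a block, 42 with trended and robust moderation, 4 with the 2-fold limit, and 5 to 46 with 1 array left out (46 without low 1, 5 without low 2, 7 without low 3, 6 without control 1, 10 without control 2). Replicate numbers did not pair the animals, and the replicate block changed no call of a member, with 5 members and 6708 genes called at 600 mg/kg against control. Of 770 recomputed member values, 72 that were never called turned their sign. The cause of these differences was not tested, other than that the 2-fold limit is a stricter rule and the smaller fits use fewer arrays.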
